A study of Mus musculus with 7 samples.

Results

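Macrophages and related myeloid cells are a small resident population of the islet, and 39 genes that mark or equip such cells were followed in islet RNA from pregnant mice. The genes were taken from the deposited gene table by name, ignoring case. Of the 39 names, 38 had at least 1 row. The table names mouse genes by human symbols where it can, and CCL2 matched 2 rows, CCL2 and Ccl2, which by their RefSeq transcripts are the mouse genes Ccl12 and Ccl2. FCGR3A, a low-affinity receptor for the constant part of IgG, equalled no row and is not analysed as one of the 39. The table holds a row FCGR3A/FCGR3B, by its transcript the mouse gene Fcgr4, at 0.947 to 1.56 scaled TPM with overlapping groups (exact permutation p = 0.143). It also holds a row FCGR2A, whose transcripts of the mouse gene Fcgr3 stood at 3.06, 3.07, 3.09 and 3.02 in the CkoWt mice named next and at 2.68, 1.92 and 2.96 in the Prlr mice, with every Prlr mouse below every CkoWt mouse (exact permutation p = 0.0286, two-sided, the smallest these groups allow). The whole row, with 1 further transcript that matched no gene of the annotation, stood at 3.06 in Prlr951 and as low as 3.02 in CkoWt294, so its groups overlapped (exact permutation p = 0.0857). That left 39 of the 34082 rows of the table. Values are TPM, a share of all transcripts corrected for transcript length, which were divided here by a size factor for each mouse and are called scaled TPM. A gene was tested when its mean TPM was at least 0.5, which held for 29 of the 39 rows and for 14840 rows of the whole table.

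Islets of 7 pregnant mice, 100 to 200 from each, were taken on day 15 and gave 1 library a mouse. The 4 mice whose titles read CkoWt (CkoWt190, CkoWt236, CkoWt285 and CkoWt294) are βPrlR+/- mice, in which a tamoxifen-activated Cre driven by the Pdx1 promoter (Pdx1CreER) removes a floxed part of the prolactin receptor gene Prlr from β-cells. The 3 Prlr mice (Prlr943, Prlr950 and Prlr951) are Prlr+/- mice, which lack 1 Prlr allele in every tissue, myeloid cells included, and carried no Cre and received no tamoxifen. Both groups were on a C57BL/6 background, were aged 3 to 4 months by the labels when bred to wild-type males, and carry a Prlr deletion, so genotype, Cre and tamoxifen cannot be told apart and no mouse here has 2 intact alleles in every cell. The paper calls the β-cell deletion heterozygous and gives another age, the labels call the deletion homozygous, and the term CkoWt is not explained. Pdx1 is active in β-cells and other endocrine cells rather than in macrophages. The islets were picked by hand after collagenase digestion and cultured overnight, and no batch is named.

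Macrophages take up dying cells and debris, present peptides on MHC class II to T cells, and make complement C1q and cytokines. Most of them depend on the receptor CSF1R, whose ligands are CSF1 and IL34, and on the transcription factors PU.1 (SPI1) and IRF8. In the islet they lie close to β-cells and blood vessels, and macrophages resident in mouse islets are known to carry MHC class II, CX3CR1 and CD11c (ITGAX) at the surface and to express lysozyme.

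The insulin genes took 46.1% to 58.9% of all TPM of a mouse, and pairs of mice correlated at 0.965 to 0.981 across genes on the log2 scale. The receptor gene PRLR stood at 55.6, 38.4, 47.3 and 38.8 scaled TPM in the CkoWt mice against 36.1, 51.1 and 35.05 in the Prlr group, so the groups overlapped, and the level of the gene alone does not tell the labels apart. The defining macrophage genes CSF1R, ADGRE1, CD68 and C1QA were above 0 in every mouse. CkoWt190 stood apart from the others in the myeloid genes, as described next, and the main results are given with and without it. In bulk islet RNA, fewer cells of a type and less RNA per cell cannot be told apart.

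The myeloid genes varied together between mice. The 29 tested genes form 406 pairs, and their Pearson r over the 7 mice, on log2(scaled TPM + 1), had a median of 0.80 and ranged from -0.74 to 0.99, where the median over all gene pairs was -0.0016. An r of at least 0.75 was reached by 228 pairs (56.2%), against 4.58% of all gene pairs. CkoWt190 was the highest mouse for 24 of the 29 genes, as it was for 11.2% of all tested genes. CkoWt294 was the lowest for 16 of them, as it was for 8.52% of all tested genes. The 29 genes summed to 324.5, 173.1, 158.4 and 125.3 scaled TPM in CkoWt190, CkoWt236, CkoWt285 and CkoWt294 and to 175.5, 230.6 and 201.4 in Prlr943, Prlr950 and Prlr951. The 2 ends of this order were thus both CkoWt mice, and every Prlr mouse lay below CkoWt190 and above the other CkoWt mice. In the mean standardised level of the 29 genes, which weighs them alike, Prlr943 (-0.32) lay below CkoWt236 (-0.31) and CkoWt285 (-0.26).

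**Figure D1:**
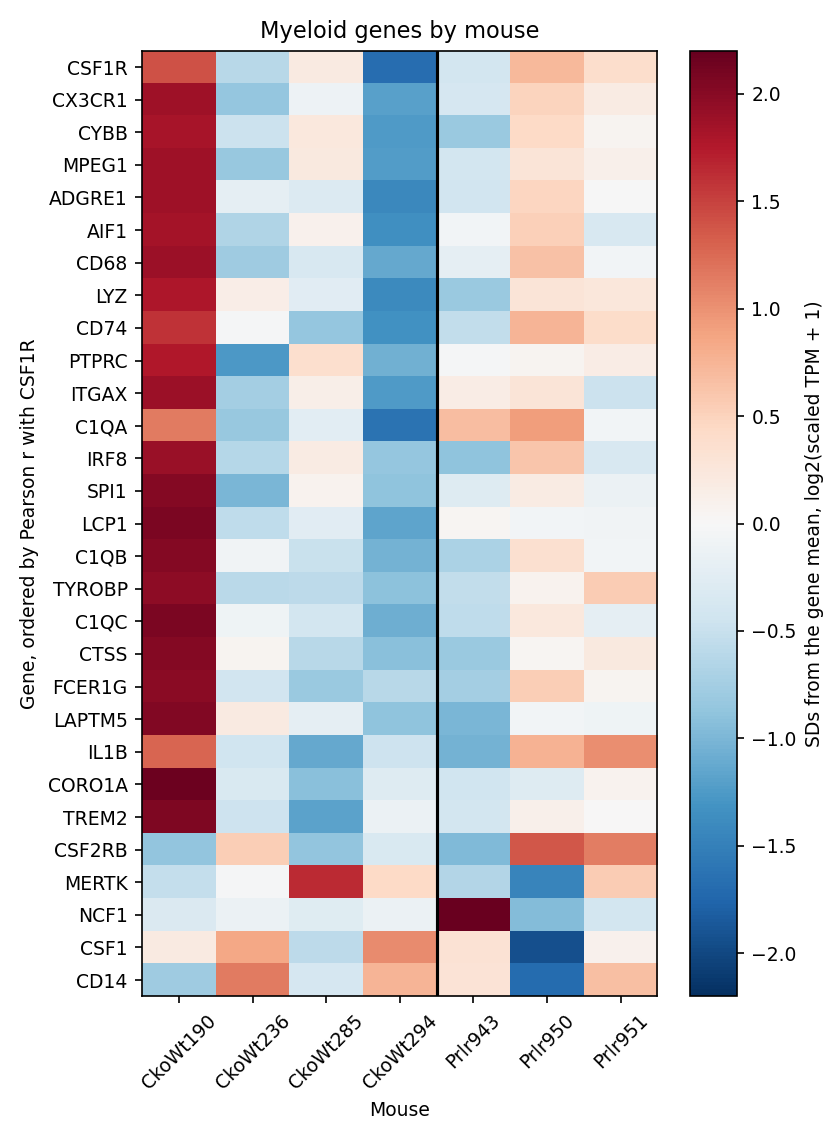
Level of the 29 tested myeloid genes (rows, ordered by Pearson r with CSF1R) in the 7 mice (columns, CkoWt left and Prlr right of the line), as standard deviations from the gene's mean on log2(scaled TPM + 1). CkoWt190 is highest for 24 genes, and CSF2RB, MERTK, NCF1, CSF1 and CD14 at the bottom follow other patterns.

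The covariation rested in part on CkoWt190. Without it the median pairwise r was 0.49, and without any other single mouse it lay between 0.80 and 0.85. With Spearman's rho, which reads only the order of the mice, the median over all 7 was 0.64, and for deviations from the group means it was 0.84. Taking out the group means thus did not lower it. It is a description over 7 mice whose genes share a library, and it carries no test. The mean standardised level of the 29 genes also moved with measures of the library, with an r of -0.62 with the number of genes above 0, -0.53 with the size factor and 0.053 with the insulin share, n = 7. Without CkoWt190 these were -0.64, -0.56 and 0.29. Their part in the covariation was not tested.

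CSF1R, the lineage receptor, served as the anchor. Of its level, 99.5% came from transcripts that the table puts under CSF1R but that matched no gene of the annotation used here, as did 94.2% for MPEG1, 58.9% for CIITA, 45.6% for SPI1 and 40.1% for CSF2RB, so for these 5 the name rests on the table. It stood at 3.45, 2.24, 2.68 and 1.74 scaled TPM in CkoWt190, CkoWt236, CkoWt285 and CkoWt294 and at 2.35, 2.99 and 2.79 in Prlr943, Prlr950 and Prlr951. Of the other 28 tested genes, 19 had a Pearson r of at least 0.75 with it (background over all genes 2.35%), and the median r was 0.84 against 0.016 over all genes. The exact permutation test used all pairings of the mice. By it, 19 of the 28 had an unadjusted two-sided p under 0.05 for r, and 19 for rho. These were not all the same genes. Those for rho included CD14 (rho = -0.82) and NCF1 (rho = -0.79), which ran against CSF1R, and not CTSS or FCER1G. The share of all genes under that p is not given, so nothing is read from these counts. None of the 28 passed after Benjamini-Hochberg adjustment over all 14839 genes. The lowest adjusted p was 0.92 for r and 0.57 for rho, and 0 genes of the whole table passed for r. With 7 mice the exact permutation test cannot go below p = 0.000198. Without CkoWt190, 17 genes had an r of at least 0.75, against 2.49% of all genes.

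Among the 28 other tested myeloid genes, the receptor CX3CR1, which binds fractalkine, followed CSF1R most closely. It stood at 2.96, 0.75, 1.19 and 0.58 scaled TPM in the CkoWt mice, in the same order of mice, which is kept from here on, and at 1.03, 1.62 and 1.39 in the Prlr mice. The order of the 7 mice was the same as for CSF1R: r was 0.94 (exact permutation p = 0.00179, adjusted p = 0.92) and rho was 1 (exact permutation p = 0.000397, adjusted p = 0.57), n = 7. When the 2 mice farthest from the median of CSF1R, CkoWt294 and CkoWt190, were left out, r was 0.97.

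The same leave-out took the median r of the 28 genes to 0.53 and the number with an r of at least 0.75 to 7, against 6.49% of all genes. All 7 were among the 19. Besides CX3CR1 they were MPEG1 (r = 0.94), a pore-forming protein that attacks engulfed bacteria, CYBB (0.90), the catalytic subunit of the phagocyte NADPH oxidase, SPI1 (0.86), IRF8 (0.85), the lysosomal glycoprotein CD68 (0.85) and the macrophage surface receptor ADGRE1 (0.77). For the other 12 of the 19, r fell below 0.75 without those 2 mice. These 12 were AIF1, LYZ, CD74, PTPRC, ITGAX, C1QA, LCP1, C1QB, TYROBP, C1QC, CTSS and FCER1G. The 2 mice were picked by their level of CSF1R, so leaving them out narrows its range and can lower r by itself. Without CkoWt190 alone, all 12 but CTSS (0.63) and FCER1G (0.59) kept an r of at least 0.75.

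**Figure D2:**
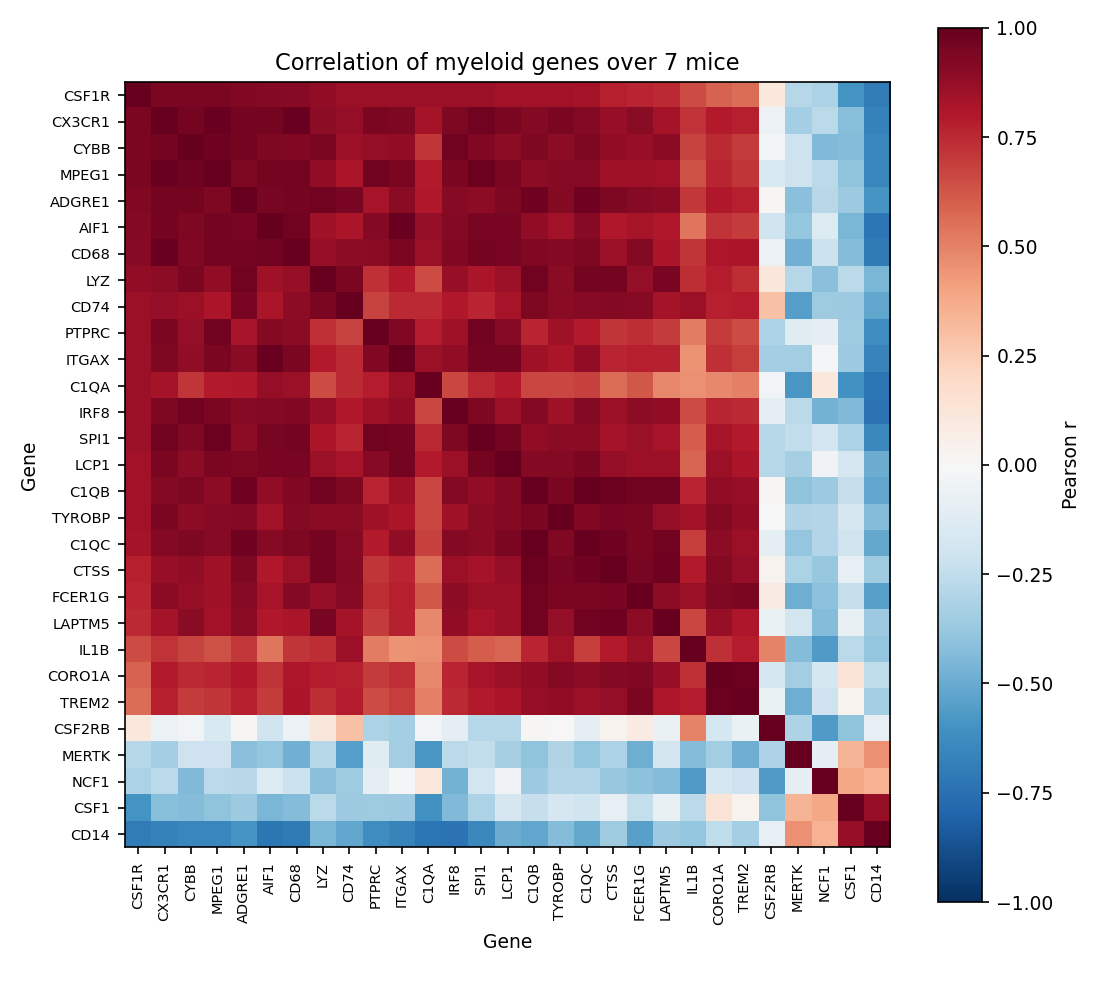
Pearson r over 7 mice between each pair of the 29 tested myeloid genes on log2(scaled TPM + 1), ordered by r with CSF1R. A block of 24 genes correlates positively, and the last 5 genes, CSF2RB to CD14, do not join it. Without CkoWt190, 17 genes had an r of at least 0.75 with CSF1R. In the block, CORO1A then fell from 0.59 to -0.0047 and TREM2 from 0.56 to 0.0073.

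By role, the complement gene C1QA was the most abundant after CD74. C1QA, C1QB and C1QC encode the chains of C1q, the molecule that starts the classical complement cascade and tags debris for uptake. C1QB stood at 19.8, 11.1, 9.84 and 8.41 scaled TPM in CkoWt and at 9.30, 12.5 and 11.2 in Prlr mice, and C1QC at 14.5, 8.08, 7.43 and 6.15 and at 7.12, 8.85 and 7.86. These 2 genes had the highest r of all pairs, 0.99, and the ratio of C1QB to C1QC stayed between 1.31 and 1.42 in the 7 mice. C1QA stood at 58.3, 25.2, 32.7 and 17.9 in CkoWt and at 48.1, 53.1 and 35.03 in Prlr mice. Its r with C1QB was only 0.67, and the ratio of C1QA to C1QB was 2.95, 2.28, 3.32 and 2.13 in the CkoWt group against 5.17, 4.24 and 3.14 in the Prlr group, with overlap (exact permutation p = 0.0857, two-sided, 35 splits). The ratio of C1QA to C1QC was 4.02, 3.12, 4.40 and 2.92 against 6.76, 6.00 and 4.46, so that the lowest Prlr mouse lay just above the highest CkoWt mouse (exact permutation p = 0.0571, where 0.0286 is the smallest p these groups allow). These ratios were computed after the values had been seen.

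Antigen presentation was led by CD74, the invariant chain that escorts MHC class II to the endosome. CD74 stood at 111, 55.3, 38.6 and 31.2 scaled TPM in CkoWt and at 44.3, 77.1 and 66.4 in Prlr mice, a 3.56-fold range within the CkoWt group. CTSS, the protease that trims the invariant chain, stood at 27.2, 17.2, 14.6 and 13.6 and at 13.9, 17.1 and 17.8. For both genes CkoWt190 was highest and CkoWt294 lowest. CIITA, the master regulator of MHC class II genes, was too low to test, at 0.0906 to 0.313 scaled TPM, with the same mice at its ends.

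The genes of the MHC class II list, which are not among the 39, followed CSF1R in part. Of its 7 tested genes, 3 had an r of at least 0.75 with CSF1R (all genes 2.35%), as they had without CkoWt190 (all genes 2.49%). HLA-DQA1, by its transcript the mouse gene H2-Aa, stood at 51.9, 21.5, 18.9 and 11.4 scaled TPM in CkoWt and at 21.1, 34.3 and 27.1 in Prlr mice. Its r with CSF1R was 0.94, that of HLA-DQB1 (H2-Ab1) was 0.94 and that of HLA-DRB5 (H2-Eb1) was 0.93. HLA-DMA (H2-DMa), part of the molecule that loads peptides, did not follow, with an r of -0.35 and a range of 2.53 to 3.48 scaled TPM, and its partner HLA-DMB had an r of 0.748. Without CkoWt190 the r of the first 3 was 0.90, 0.91 and 0.89, that of HLA-DMA was -0.71 and that of HLA-DMB was 0.54. IFI30 had an r of 0.515 with CSF1R (0.469 without CkoWt190) and CD83 of 0.28 (-0.14 without CkoWt190). Over the 7 tested genes of the MHC class II list, the mean level per mouse had an r of 0.96 with the mean of the myeloid genes, and of 0.81 without CkoWt190.

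The signalling adaptors FCER1G, the γ chain of Fc receptors, and TYROBP, the partner of TREM2, were dominated by 1 mouse. TYROBP stood at 9.88, 4.60, 4.63 and 4.16 scaled TPM in CkoWt and at 4.66, 5.65 and 6.54 in Prlr mice. FCER1G stood at 11.98, 6.75, 6.12 and 6.45 and at 6.21, 8.52 and 7.601. In both genes the 3 other CkoWt mice lay close together and CkoWt190 was far above them. TREM2, a lipid receptor of phagocytes, was low, at 0.305 to 1.19 scaled TPM, and also peaked in CkoWt190.

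Among the lysosomal and lysozyme genes, the LYZ row stood at 16.0, 9.41, 8.23 and 5.53 scaled TPM in CkoWt and at 6.78, 9.85 and 9.74 in Prlr mice. It sums 2 mouse genes, Lyz2 with a mean of 8.33 and Lyz1 with a mean of 1.03. MPEG1 stood at 7.92, 3.36, 4.75 and 2.93 and at 3.87, 4.85 and 4.61. LAPTM5, a lysosomal membrane protein of leukocytes, ranged from 2.87 in Prlr943 to 6.08 in CkoWt190.

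The regulators and the leukocyte cytoskeleton were low, and they too were highest in 1 mouse. SPI1 ranged from 0.652 to 2.11 scaled TPM and IRF8 from 0.564 to 1.16, both highest in CkoWt190. LCP1, an actin-bundling protein of leukocytes, ranged from 2.39 to 4.31, CORO1A, an actin regulator of leukocytes, from 2.14 to 3.19, and AIF1, an actin-binding protein also called Iba1, from 0.453 to 2.09. Of the surface genes, CD68 ranged from 1.43 to 3.28, ADGRE1 from 0.651 to 1.93, ITGAX from 0.469 to 1.71 and PTPRC, the common leukocyte antigen CD45, from 0.414 to 1.08. All of these genes were highest in CkoWt190. The cytokine IL1B ranged from 0.515 to 1.18 and had an r of 0.65 with CSF1R.

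5 of the 29 genes did not join the group. CD14, a receptor for bacterial lipopolysaccharide, stood at 1.09, 1.97, 1.25 and 1.77 scaled TPM in CkoWt and at 1.54, 0.766 and 1.72 in Prlr mice, with an r of -0.70 with CSF1R (exact permutation p = 0.0802, adjusted p = 0.96, n = 7). Its rho with CSF1R was -0.82 (exact permutation p = 0.0341, adjusted p = 0.68). CSF1, the ligand of CSF1R, stood at 6.14, 7.11, 5.16 and 7.42 and at 6.31, 3.74 and 6.01, with an r of -0.59 (exact permutation p = 0.16, adjusted p = 0.99, n = 7). Without CkoWt190 the r of CD14 was -0.66 and that of CSF1 was -0.82. CD14 and CSF1 were both lowest in Prlr950 and had an r of 0.87 with each other.

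MERTK, a receptor for dying cells, had an r of -0.29 with CSF1R (-0.18 without CkoWt190) and ranged from 0.517 to 1.19 scaled TPM. NCF1, a cytosolic subunit of the NADPH oxidase, had an r of -0.32 and ranged from 1.09 to 1.72, while the membrane subunit CYBB of the same enzyme ranged from 0.758 to 2.38 with an r of 0.94. The rho of NCF1 with CSF1R was -0.79 (exact permutation p = 0.0480, adjusted p = 0.70). CSF2RB, the shared receptor chain for GM-CSF and IL-3, had an r of 0.11, and of 0.47 without CkoWt190. Its row merges transcripts of Csf2rb and Csf2rb2 with others that matched no gene of the annotation, so it does not stand for 1 gene.

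**Figure D3:**
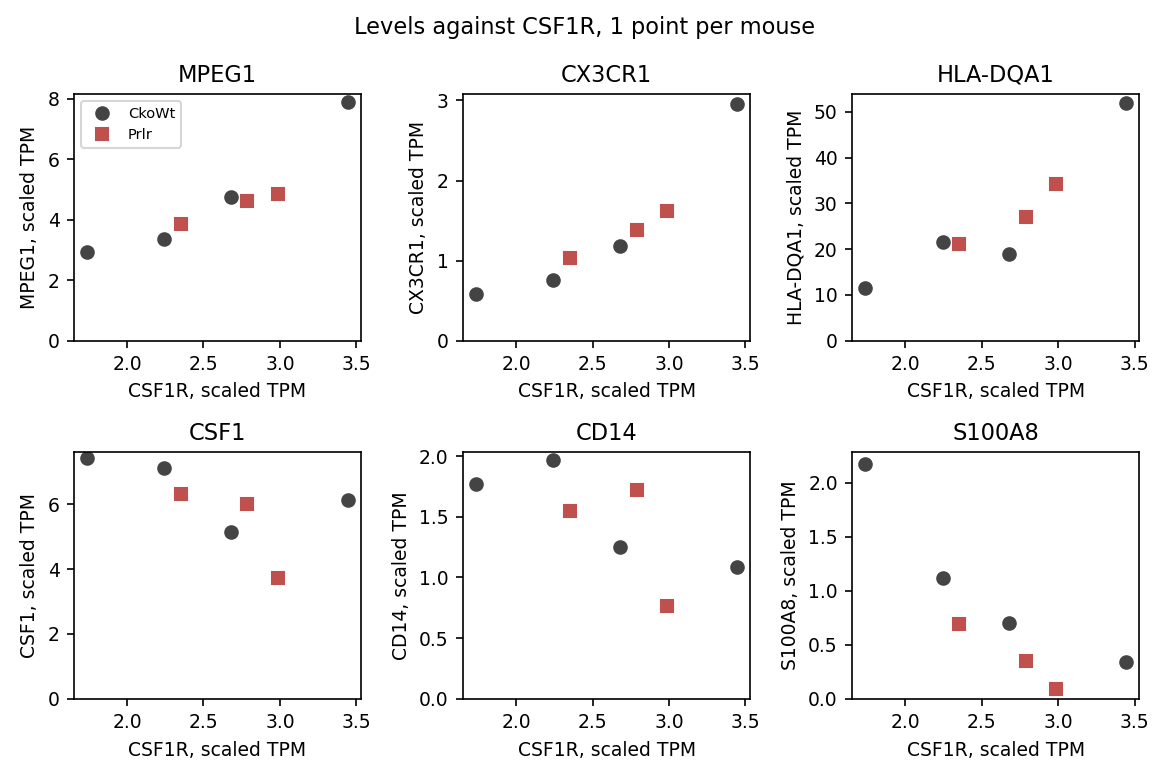
Scaled TPM of 6 genes (vertical axes) against scaled TPM of CSF1R (horizontal axes), 1 point per mouse, circles for CkoWt and squares for Prlr. MPEG1, CX3CR1 and HLA-DQA1 rise with CSF1R, the neutrophil gene S100A8 is highest where CSF1R is lowest, and CSF1 and CD14 are lowest in Prlr950.

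The 10 rows under the filter were CIITA, CCR2, CCL2, Ccl2, TNF, NCF4, ITGAM, CD86, MRC1 and CD163. CCR2, the receptor that brings monocytes out of the marrow, ranged from 0.299 to 0.664 scaled TPM, and NCF4, a further oxidase subunit, from 0.20 to 0.691. The costimulatory molecule CD86 ranged from 0.214 to 0.421 and the integrin ITGAM (CD11b) from 0.24 to 0.483. MRC1, the mannose receptor, ranged from 0.153 to 0.29 and the haemoglobin scavenger receptor CD163 from 0.0333 to 0.148, both typical of macrophages of connective tissue. TNF reached at most 0.0494 and was listed at 0 in CkoWt236. The row CCL2 (Ccl12) was listed at 0 in CkoWt285 and Prlr951 and stood at 0.61 in CkoWt190.

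Because PU.1 is the lineage factor of these cells, the promoters of the covarying genes were searched for GAGGAA, the core of the PU-box, on both strands (read as TTCCTC on the other). The 250 bases before the start of each gene were taken from RefSeq promoters of GRCm38.p6. Windows of 29 mouse genes behind the 39 rows were searched, and those of Csf1r, Cd74 and Cd14, among others, were not. The letters were found in 13 of the 29 windows (44.8%) and in 23.1% of all 27025 windows of that length. Whether both sets were limited in the same way was not tested, so nothing is read from the difference between these shares. Among the 15 windows of genes with an r of at least 0.75 with CSF1R, 6 held them and 9 did not. A match is a description of the letters and not a site. Of these 6, the 4 with the highest r are shown, 5′ to 3′ along the gene, with the matches in capitals. They lie at chr17:35176053-35176302 (Aif1), chr11:69666171-69666420 (Cd68), chr1:138175306-138175555 (Ptprc) and chr4:136886201-136886450 (C1qb), all on the minus strand.
Aif1: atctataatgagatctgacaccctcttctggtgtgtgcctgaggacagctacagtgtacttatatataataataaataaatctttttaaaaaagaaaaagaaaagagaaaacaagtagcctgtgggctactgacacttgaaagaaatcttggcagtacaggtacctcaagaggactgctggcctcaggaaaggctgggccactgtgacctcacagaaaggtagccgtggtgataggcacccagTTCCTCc
Cd68: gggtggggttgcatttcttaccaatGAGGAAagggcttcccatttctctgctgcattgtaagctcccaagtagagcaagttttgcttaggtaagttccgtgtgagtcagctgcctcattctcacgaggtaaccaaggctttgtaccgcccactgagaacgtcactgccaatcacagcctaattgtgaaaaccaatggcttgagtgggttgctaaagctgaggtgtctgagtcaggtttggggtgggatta
Ptprc: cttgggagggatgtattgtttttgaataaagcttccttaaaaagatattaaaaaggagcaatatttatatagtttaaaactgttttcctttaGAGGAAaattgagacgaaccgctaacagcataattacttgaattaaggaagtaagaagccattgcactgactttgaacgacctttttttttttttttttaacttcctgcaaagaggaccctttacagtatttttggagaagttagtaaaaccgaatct
C1qb: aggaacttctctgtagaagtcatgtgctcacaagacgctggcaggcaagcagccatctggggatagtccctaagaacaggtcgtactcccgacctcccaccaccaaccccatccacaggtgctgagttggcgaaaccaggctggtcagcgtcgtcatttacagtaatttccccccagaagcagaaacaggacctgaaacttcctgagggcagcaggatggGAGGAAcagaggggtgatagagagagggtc

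The Aif1 match lies at the end of its window, next to the gene start, the C1qb match lies close behind it, and those of Cd68 and Ptprc lie farther upstream. Cx3cr1, Mpeg1, Cybb and Irf8, whose levels followed CSF1R as closely, held no match in this window.

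The comparison of the groups asks whether islets with 1 Prlr allele missing from every tissue differ in myeloid genes from islets with the deletion in β-cells. No tested myeloid gene passed the test. In the Prlr mice 17 of the 29 were lower and 12 higher, and without the size factor, which moved the median of all genes to -0.12, 24 were lower and 5 higher. The log2 fold changes had a median of -0.01 (all genes 0.0042) and a range from -0.25 for CSF1 to 0.54 for C1QA, on the log2(scaled TPM + 1) scale, which understates the change of low genes. By limma with Benjamini-Hochberg adjustment over all 14840 genes, 0 of the 29 had an adjusted p under 0.05 (background 0.0674%), with adjusted p = 0.9999 for each. At an unadjusted p under 0.05 the count was also 0 (background 4.52%), and C1QA came nearest. The groups overlapped for each of the 29 (background of genes whose groups do not overlap 4.95%). These shares are small too, and nothing particular to the myeloid genes is read from the counts.

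**Figure D4:**
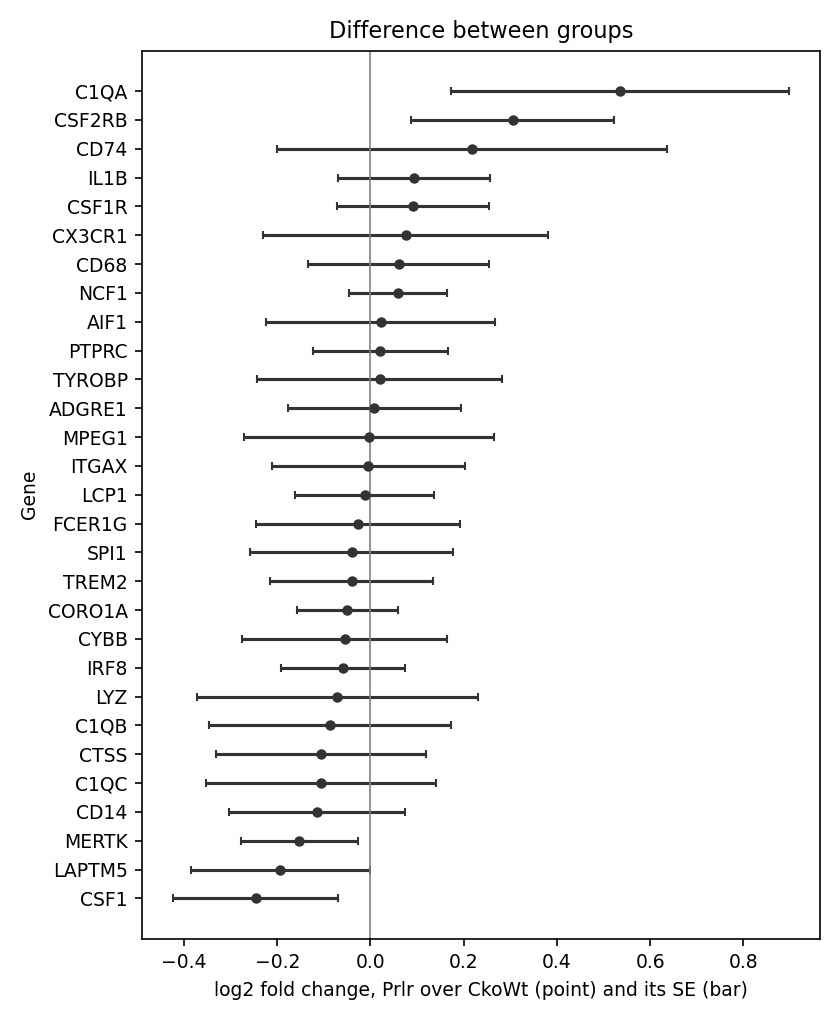
log2 fold change of the 29 tested myeloid genes, Prlr (n = 3) over CkoWt (n = 4), with points for the limma estimate and bars for its standard error. Estimates run from -0.25 for CSF1 to 0.54 for C1QA, and most bars cross 0.

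The largest estimates were those of C1QA (0.54 ± 0.36, SE), CSF2RB (0.31 ± 0.22) and CD74 (0.22 ± 0.42) upward and of CSF1 (-0.25 ± 0.18), LAPTM5 (-0.19 ± 0.19) and MERTK (-0.15 ± 0.13) downward. The mean of C1QA was 33.5 ± 17.6 scaled TPM (SD, n = 4) in the CkoWt mice and 45.4 ± 9.33 (SD, n = 3) in the Prlr mice, and that of CD74 was 59.1 ± 36.1 and 62.6 ± 16.7. Leaving out 1 mouse moved these estimates by over 1.5 times: C1QA to 0.29 without CkoWt294 and 0.84 without CkoWt190, CSF2RB to 0.16 without Prlr950 and 0.56 without Prlr943, CD74 to -0.02 without CkoWt294 and 0.58 without CkoWt190, CSF1 to -0.05 and MERTK to -0.07 without Prlr950, and LAPTM5 to -0.03 without CkoWt190. CSF2RB and not C1QA was the highest without CkoWt294 and without Prlr943. For C1QA and CD74 the difference between the means was smaller than the spread between the CkoWt mice. The mean of C1QB was 12.3 ± 5.13 and 11.0 ± 1.61, and that of CTSS was 18.2 ± 6.24 and 16.3 ± 2.08, again within the spread.

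**Figure D5:**
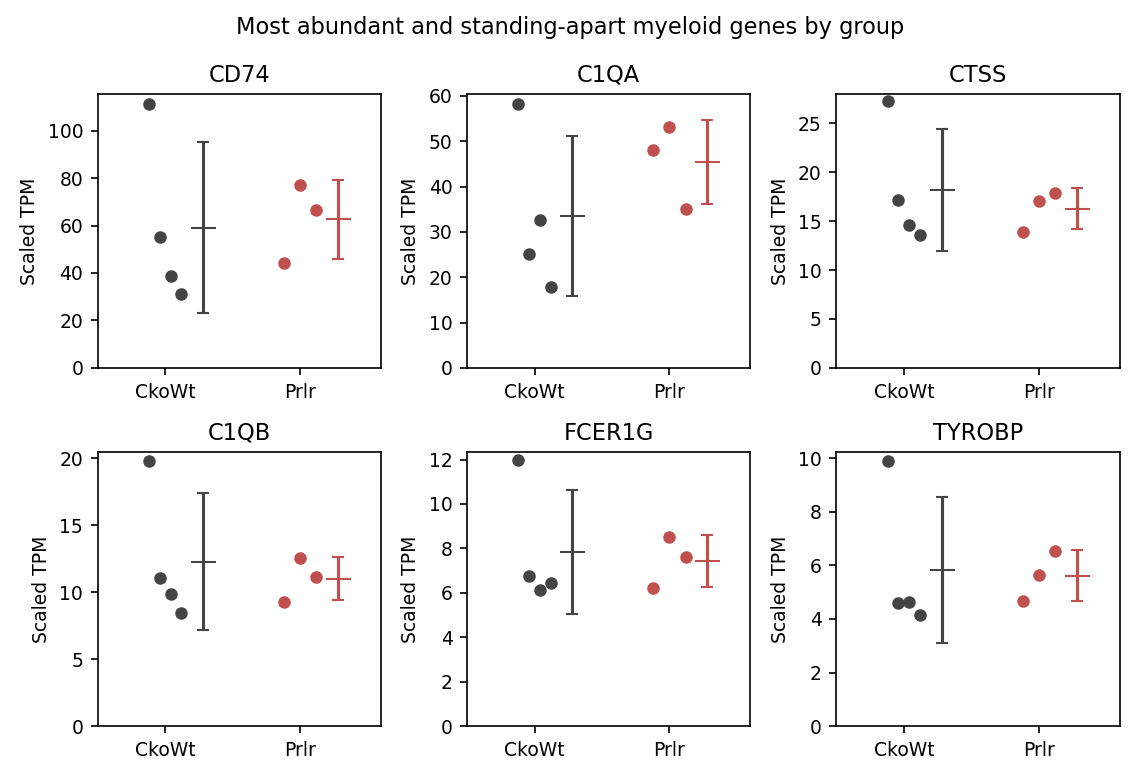
Scaled TPM of CD74, C1QA, CTSS, C1QB, FCER1G and TYROBP in each mouse by group (points, 4 CkoWt and 3 Prlr), with the group mean (dash) and SD (bar) beside them. The groups overlap in every panel, and the highest CkoWt point is CkoWt190 each time.

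The signs of these differences turned on single mice, most of all on CkoWt190. Without it, 25 of the 29 genes were higher in the Prlr mice and 4 lower, with a median of 0.16, against 0.0020 over all genes. C1QA then had a log2 fold change of 0.84 ± 0.24 (SE) and was the 1 gene of the 29 with an unadjusted limma p under 0.05, as were 7.29% of all genes in that fit. Its adjusted p was 0.52 by limma, over 3 mice a group. Its groups no longer overlapped, as also those of TYROBP, LCP1 and CD68, 4 of the 29 where 12.7% of all genes did not overlap with that mouse left out. No gene of the 29 had an adjusted p under 0.05 in that fit. Without CkoWt294, the lowest, 25 were lower and 4 higher, and without CkoWt236 23 were lower and 6 higher. Without Prlr943 the majority also turned, with 13 lower and 16 higher and a median of 0.029.

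Among the rows too low to test, Ccl2, a chemokine that attracts CCR2-bearing monocytes, was the only one whose groups did not overlap. It stood at 0.319, 0.163, 0.307 and 0.212 scaled TPM in CkoWt and at 0.0294, 0.0917 and 0.0903 in Prlr mice (exact permutation p = 0.0571, two-sided, 35 splits). Every Prlr mouse was below every CkoWt mouse, at levels near the bottom of the table. Ccl2 is 1 of 10 such rows here, and the groups did not overlap for 4.67% of the 13095 rows of the table that were above 0 in at least 1 mouse and under the filter.

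Ligands of these receptors were read in the same libraries, which do not show the cells that make them. CX3CL1, the ligand of CX3CR1, stood at 9.26, 9.59, 8.52 and 9.19 scaled TPM in CkoWt and at 8.03, 6.14 and 8.19 in Prlr mice. Its log2 fold change was -0.27 ± 0.10 (SE). IL34, the other ligand of CSF1R, stood at 1.17, 0.944, 1.11 and 0.926 and at 0.575, 0.77 and 0.822, a log2 fold change of -0.24 ± 0.09 (SE). In both, every Prlr mouse was below every CkoWt mouse, with an exact permutation p of 0.0286 for each, but by limma the adjusted p was 0.9999 for both. The receptors CX3CR1 and CSF1R had log2 fold changes of 0.08 ± 0.31 and 0.09 ± 0.16 (SE). These 2 ligands were the only genes of the chemokine and cytokine list, of 11 tested, with an unadjusted p under 0.05 (all genes 4.52%) and with groups that did not overlap (all genes 4.95%), and they were described for their role and not for these counts. The mean of that list had an r of 0.66 with the mean of the myeloid genes, and of 0.081 without CkoWt190.

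Of 35 tested genes of a list of other macrophage genes, 25 were lower and 10 higher, and their mean had an r of 0.85 with that of the myeloid genes, which fell to 0.32 without CkoWt190. Of the 35, 8 had an r of at least 0.75 with CSF1R (all genes 2.35%), and 4 without CkoWt190 (all genes 2.49%). The 8 included MS4A7 (0.89), the small surface antigen gene Cd52 (0.91) and the lysosomal nuclease PLD4 (0.88). The r of the 35 ran from -0.81 for TLR2 to 0.91 for Cd52, with a median of 0.48. MS4A6A (-0.30 ± 0.09, SE, limma adjusted p = 0.86) and the inhibitory Fc receptor FCGR2B (-0.32 ± 0.12, limma adjusted p = 0.99) were the 2 of 35 with an unadjusted p under 0.05 (all genes 4.52%). Every Prlr mouse was below every CkoWt mouse for both, and also for INPP5D and FERMT3 (all genes not overlapping 4.95%). In the other direction, Fcna, a ficolin of macrophages whose mean was just under the filter, stood at 0.172, 0.239, 0.245 and 0.437 scaled TPM in CkoWt and at 0.712, 0.772 and 0.912 in Prlr mice, every Prlr mouse above every CkoWt mouse (exact permutation p = 0.0286, two-sided). The paper, with another test, lists Fcna among the genes it found higher in Prlr+/- islets. Being under the filter, it was not in the main limma comparison here. In the MHC class II list 1 of 7 tested genes, CD83, had an unadjusted p under 0.05 (-0.34 ± 0.13, SE, limma adjusted p = 0.9999). In the list of macrophage lysosome and lipid genes 2 of 19 did, CD9 and FABP5, both lower. Their r with CSF1R was -0.56 and -0.36. Genes of that list such as PSAP (mean 539.8 scaled TPM) and CD63 (501.9) stood far above CSF1R (2.61), so the list is not read as macrophages alone. The r of the list's mean with that of the myeloid genes was 0.55, and -0.17 without CkoWt190. No tested gene of these lists, which leaves out Fcna, had an adjusted p under 0.05. With 1 or 2 genes a list against 4.52% of all genes at an unadjusted p under 0.05, nothing is read from these counts.

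Genes of macrophages of connective tissue were mixed. LYVE1 ranged from 3.14 to 6.45 scaled TPM with an r of -0.27 with CSF1R (-0.58 without CkoWt190), FOLR2 from 0.243 to 0.609, and TIMD4 was listed at 0 in 5 of the 7 mice. The list had 5 tested genes of 18 rows, of which GAS6, a ligand of MERTK, had an r of 0.84 with CSF1R, the scavenger receptor STAB1 of 0.61, the complement factor CFP of 0.42 and the selenium carrier SELENOP of -0.73. Their mean had an r of 0.60 with that of the myeloid genes, and of -0.03 without CkoWt190. In the interferon list, 2 of 15 tested genes, GBP2 (0.88) and ISG15 (0.84, or 0.74 without CkoWt190), reached an r of 0.75 with CSF1R, the mean of the list had an r of 0.79 with that of the myeloid genes (-0.11 without CkoWt190), and none had an unadjusted p under 0.05 between the groups.

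Of the neutrophil and monocyte list, S100A8 and S100A9 ran against CSF1R. S100A8, a calcium-binding protein abundant in neutrophils, stood at 0.342, 1.12, 0.703 and 2.18 scaled TPM in CkoWt and at 0.691, 0.09 and 0.354 in Prlr mice. Its r with CSF1R was -0.91 and that of its partner S100A9 was -0.89. Both were highest in CkoWt294, where CSF1R was lowest. The other tested genes of the list were mixed, with an r of -0.59 for PLAC8, -0.12 for ACE, 0.13 for VCAN and 0.20 for CXCR2. Without CkoWt190 these were -0.82, -0.16, 0.17 and 0.53. The mean of the 6 tested genes of that list had an r of -0.53 with the mean of the myeloid genes, and -0.76 without CkoWt190. Of the mast cell and eosinophil list, KIT and HDC alone were tested, which other cells express too, and the more specific mast cell rows were at or near 0 (CPA3 had a mean of 0.0178 and MS4A2 of 0.0022 scaled TPM, and FCER1A and Tpsab1 were listed at 0), so no mast cell signal is read from them.

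Markers of other cells that islet preparations can hold were read beside the covariation, and their part in it was not tested. The acinar list of 17 genes summed to 46960, 5688, 48190 and 16740 scaled TPM in the CkoWt mice and to 15690, 38890 and 19930 in the Prlr mice, with an r of 0.54 with the mean of the myeloid genes. The r of the 17 acinar genes with CSF1R ran from 0.59 to 0.76, with a median of 0.66 (all genes 0.016). Of these genes, 1 had an r of at least 0.75 (all genes 2.35%), and 0 without CkoWt190 (all genes 2.49%). The mean of 9 fibroblast and pericyte genes had an r of 0.60, that of 14 endothelial genes 0.39, that of 9 duct genes 0.27 and that of the 14 β-cell genes 0.63. Without CkoWt190 the acinar list had 0.37, the fibroblast and pericyte list 0.36, the endothelial list -0.12, the duct list 0.032 and the β-cell list 0.88. Within the β-cell list, 5 of the 14 genes had an r of at least 0.75 with CSF1R (also 5 without CkoWt190, where SLC2A2 took the place of UCN3), and the r of the 14 ran from -0.67 for NEUROD1 to 0.89 for GLP1R. PDX1 had 0.87 and MAFA 0.81, while INS had 0.26, IAPP -0.05 and UCHL1 -0.39 (-0.70 without CkoWt190).

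Lymphocytes left little signal. Of 24 T and NK cell rows 2 were tested, and CD3D, CD3E and CD3G had means of 0.185, 0.0251 and 0.0342 scaled TPM. The mean of the 2 tested genes had an r of 0.41 with that of the myeloid genes, and of -0.24 without CkoWt190. Of 15 B cell rows 2 were tested, and CD79A alone was high, at 11.7 to 22.3, while its r with CSF1R was -0.39 (0.0052 without CkoWt190) and that of the list's mean with the mean of the myeloid genes was 0.11. Of 15 dendritic cell rows 3 were tested, and their mean had an r of 0.07 with that of the myeloid genes. ZBTB46, a factor of classical dendritic cells that endothelial cells also express, had a log2 fold change of -0.28 with a limma adjusted p = 0.85, and was the 1 of the 3 with an unadjusted p under 0.05. Of the lymph node and mesenteric fat list 1 of 7 rows was tested, CCL19, with an r of 0.79 with CSF1R, and of 0.68 without CkoWt190.

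Of the lists of other cells, those of endothelium and β-cells stood to opposite sides between the groups, but they were not the only one-sided lists. In the acinar list 15 genes were higher in the Prlr mice and 2 lower, with a median log2 fold change of 0.09. In the fibroblast and pericyte list 8 were lower and 1 higher, with a median of -0.11. In the endothelial list all 14 tested genes were lower in the Prlr mice, where 48.3% of all genes were, with a median log2 fold change of -0.23 (all genes 0.0042). The 6 with an unadjusted p under 0.05 (all genes 4.52%) were ESAM (-0.23), PECAM1 (-0.36), PLVAP (-0.28), ERG (-0.26), CDH5 (-0.24) and TIE1 (-0.21), genes of endothelial junctions, surface and identity, and none passed after adjustment, with the lowest limma adjusted p at 0.61 for ESAM. In the β-cell list 12 of 14 were higher and 2 lower, with a median of 0.30. The transcription factor MAFA (0.71 ± 0.29, SE, limma adjusted p = 0.9999) and the deubiquitinase UCHL1 (-0.42 ± 0.09, limma adjusted p = 0.44) were the 2 with an unadjusted p under 0.05. With other scalings and with any 1 mouse left out, 13 or 14 of the endothelial genes were lower and 10 to 13 of the β-cell genes higher, 10 being the number without a size factor, where 88.1% of all genes were lower.

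Across the whole table, the genes outside the 39 whose pattern over the 7 mice was most like the mean standardised level of the myeloid genes were sought among the 8992 whose mean TPM was 5 or more. The 10 nearest were UCHL5 (r = 0.96), BTBD2 (0.95), CAMK1 (0.95), mir-3960 (0.94), HLA-DRB5 (0.94), HLA-DQA1 (0.94), EMCN (0.93), LONP1 (0.92), Gm1673 (0.92) and Snrpc (0.92). Of these, the 2 MHC class II genes also had a wide range, 11.4 to 51.9 scaled TPM for HLA-DQA1, while UCHL5, a deubiquitinase, ranged only from 6.86 to 8.69. With 7 mice and so many genes, 17 genes reached an r of 0.9, and the likeness is a description. Without CkoWt190, on which the choice also rested, the r of the 10 ranged from 0.67 to 0.97.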

How the data were processed

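Islet RNA of 7 mice (4 CkoWt, 3 Prlr) was compared, the groups being those of the labels. The authors enriched poly(A) RNA, made directional libraries and assigned reads to mouse RefSeq transcripts with kallisto 0.42.4. No genome build is named in the sources used here. The paper names FPKM as the unit. Since the deposited values of a mouse add up to 1000000, they were treated as TPM. Estimation of transcripts can move TPM between similar genes and isoforms. The paper states the range of reads sequenced per sample, but TPM do not keep the reads behind each gene, so no counting interval is given.

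TPM were divided by median-ratio size factors over genes whose mean TPM was 0.5 or more, because insulin takes about as much TPM as all other genes. Values of log2(scaled TPM + 1) were compared with limma 3.58.1 (trend, R 4.3.3) and Benjamini-Hochberg adjustment over 14840 genes, at a threshold of 0.05, and by two-sided exact permutation over 35 splits. Correlations with CSF1R used all 5040 pairings. Both steps were tested on simulated data. Labels do not say more than that samples are separate mice, and p-values measure the spread between them.

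The members and lists were chosen with earlier results of these data known. Genes were named if they were members, with values per mouse for those with a mean of at least 10, an unadjusted p under 0.05, groups that did not overlap or a mouse standing apart. Values per mouse of CSF1R, CX3CR1, C1QC, LYZ, MPEG1, CD14, CSF1 and of the list genes were added after they had been seen. From lists of other cell types, genes past an unadjusted p of 0.05 were named, and some with a high mean or r. Alternatives were no size factor, upper-quartile factors, no filter, a stricter filter (mean TPM of 1), another pseudocount (0.1), a robust fit, Spearman's rho, deviations from group means, and leaving out each mouse. Promoters came from RefSeq (GRCm38.p6), matched by symbol. Other steps used Python 3.11.15, numpy 2.4.6, pandas 2.3.3, scipy 1.17.1 and matplotlib 3.10.9.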

Additional observations from a re-analysis of the deposited data

Results flagged for a closer look

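Among the 4 CkoWt mice, CkoWt190 lay far above the other 3 in TYROBP, where the gap to the nearest mouse took 0.918 of the range of the group, and in FCER1G, where it took 0.891. Dixon's 95% limit for 4 samples is 0.829, and chance alone passes it in about 1 of 20 groups. All 39 myeloid rows were examined in this way and these 2 alone passed, about as many as that share would give. The Prlr group has 3 mice and was not examined in this way. The 2 genes encode adaptors of the same receptor family and share the pattern of the other myeloid genes, so they are not separate observations.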

How the results depend on the processing

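The median pairwise r of the myeloid genes stayed positive under each alternative. It was 0.67 with no filter on low values, 0.64 with Spearman's rho, and 0.49 to 0.85 when 1 mouse was left out. The number with an r of at least 0.75 with CSF1R lay between 16 and 22. No myeloid gene had an adjusted limma p under 0.05 under any alternative. With no filter, 1 of 39 had an unadjusted p under 0.05 (Ccl2; all genes 4.76%), and the count was 0 to 1 of 29 when 1 mouse was left out (all genes 3.34% to 7.29%). The number whose groups did not overlap was 1 without a size factor (CORO1A, all genes 8.71%), 1 with no filter (Ccl2, all genes 4.82%) and 0 to 4 when 1 mouse was left out (all genes 6.50% to 16.2%). Without Prlr943 these were CSF2RB and NCF1, and without Prlr951 MERTK. The median log2 fold change was -0.10 without a size factor (all genes -0.12) and -0.0929 to 0.16 when 1 mouse was left out. That of CD74 turned to -0.0232 without CkoWt294 and was highest, 0.58, without CkoWt190. Of 77 alternative values of the 6 genes given as the largest estimates, the other 76 kept their sign. The correlations of lists and list genes without CkoWt190 and the directions of the endothelial and β-cell lists under other settings were added after seeing the data. No paired analysis was possible because the mice of the 2 groups carry different numbers. Causes of these shifts were not tested. TPM do not keep the reads behind a gene, so no counting limit is given for genes under 1 TPM.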
